A study of Mus musculus with 86 samples.

Results

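The 10 genes described here, Fdxr, Cdr2l, Itgb4, St6galnac2, Tmc6, Tmc8, Usp36, Endov, Oxld1 and Arl16, lie near the distal end of mouse chromosome 11. They were chosen from the 35275 genes of the count table because they lay within a few megabases of each other, with lower coordinates from 115.3 to 120.5 Mb of that chromosome, and ranked high when females with small and large social networks were compared. That comparison in females is therefore given as a description, without a test. The tests below concern the males, the sexes and the brain regions. Joint variation of the genes from animal to animal was also named when the set was put together. The correlations below are therefore no independent support for it, and their p-values are a description. All 10 members passed the filter on low counts in each comparison.

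RNA sequencing was done on the prefrontal cortex, hippocampus and hypothalamus of 29 wild house mice (Mus musculus) from a free-living barn population, caught in winter and given no treatment. The labels call gregariousness low or high, which the study defines as a small or a large number of partners met in the nest boxes per day. There were 7 females with small and 7 with large networks, and 8 males with small and 7 with large networks, with 1 library missing from the hypothalamus of the males with small networks. Each library came from 1 region of 1 animal, so the 86 libraries are linked by animal across the regions. The labels give no age. The study gives estimated ages, with the lowest mean in males with small networks, and found no significant difference by sex or network size. Age was not part of any fit here.

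The members are given in the order in which they lie along the chromosome. Fdxr encodes ferredoxin reductase, which feeds electrons to the cytochromes P450 and the iron-sulfur cluster machinery of mitochondria. Cdr2l is a paralog of Cdr2, and its protein is the target of antibodies in a paraneoplastic cerebellar disease. Itgb4 encodes integrin beta 4, which pairs with integrin alpha 6 to bind laminin, and St6galnac2 encodes an enzyme that adds sialic acid to the sugars of glycoproteins. Tmc6 and Tmc8 encode membrane proteins that bind the zinc transporter Slc30a1 and that are best known from skin susceptibility to papillomaviruses. Usp36 encodes a deubiquitinase of the nucleolus, Endov an endonuclease that cuts RNA at inosine, Oxld1 a small protein with an oxidoreductase-like domain, and Arl16 a small GTPase of the ARF-like family.

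In the GENCODE vM21 annotation of GRCm38 the first gene, Fdxr, spans chr11:115268024-115277050 on the minus strand and the last, Arl16, chr11:120464866-120467607 on the minus strand. Cdr2l (chr11:115381916-115396132, plus), Itgb4 (chr11:115974709-116008412, plus) and St6galnac2 (chr11:116675303-116694868, minus) follow Fdxr, and these 4 are called the proximal members. The 6 distal members begin with Tmc6 (chr11:117765988-117782198, minus) and Tmc8 (chr11:117782076-117793110, plus), which start head to head and whose exons share 40 bases. Usp36 (chr11:118259651-118290244, minus), Endov (chr11:119491347-119511437, plus) and Oxld1 (chr11:120456606-120458068, minus) lie before Arl16.

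RefSeq promoter windows of GRCm38.p6, the 250 bases before a transcript start, were found for 7 of the 10 members, all but Cdr2l, Itgb4 and St6galnac2. The stretches below are those of 5 distal members, shown because 9 of their 10 pairs varied together from animal to animal, as described later, and each is the longest part of its window outside annotated exons. The windows of Tmc6 and Tmc8 precede a start inside the gene, so the stretches shown for these genes lie within their annotated spans. They are written 5′ to 3′ on the strand of the gene, and capitals mark the motifs CACGTG and CGGAAGT, which were picked after the letters had been read and searched on both strands.
Tmc6, chr11:117780693-117780909, minus strand: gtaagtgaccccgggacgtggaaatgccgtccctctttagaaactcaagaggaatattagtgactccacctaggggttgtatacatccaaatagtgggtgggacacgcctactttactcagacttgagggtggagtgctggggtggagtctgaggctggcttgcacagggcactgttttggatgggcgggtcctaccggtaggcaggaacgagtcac
Tmc8, chr11:117782211-117782296, plus strand: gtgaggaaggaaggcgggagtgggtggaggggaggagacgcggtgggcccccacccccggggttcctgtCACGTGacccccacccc
Usp36, chr11:118290245-118290494, minus strand: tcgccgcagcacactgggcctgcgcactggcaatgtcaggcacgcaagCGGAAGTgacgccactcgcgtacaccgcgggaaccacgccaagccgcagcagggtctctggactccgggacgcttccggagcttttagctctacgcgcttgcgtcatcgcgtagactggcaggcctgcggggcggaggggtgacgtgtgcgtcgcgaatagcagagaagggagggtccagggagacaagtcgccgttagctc
Endov, chr11:119491299-119491346, plus strand: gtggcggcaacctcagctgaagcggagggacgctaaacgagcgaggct
Oxld1, chr11:120458071-120458114, minus strand: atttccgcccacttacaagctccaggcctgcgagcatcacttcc
CACGTG, which reads the same on both strands, stood in the window of Tmc8 among the members and was held by 6.02% of 32851 promoter windows of the same length. CGGAAGT, or ACTTCCG on the other strand, was held by 4.92% of windows and stood in those of Fdxr, Usp36, Arl16 and the second of 2 windows of Endov. The stretches of Tmc6, Endov and Oxld1 hold neither motif. These matches describe the letters, and no binding was measured. The windows of Oxld1 and Arl16 also hold exon bases of their head-to-head neighbours Ccdc137 and Hgs.

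Total counts per library lay between 33711824 and 81865801 (median 44778419). In the hypothalamus, 7 hypothalamic neuropeptide and transcription factor genes summed to 106.5 to 1446 CPM (read counts scaled to library size). Their sum was at most 82.2 CPM in the hippocampus and 6.84 CPM in the prefrontal cortex. The 5 cortical excitatory neuron markers summed to 1823 to 2857 CPM in the prefrontal cortex. They reached at most 1721 CPM in the hippocampus and 394.2 CPM in the hypothalamus. The 5 hippocampal neuron markers separated less. They summed to 291.5 to 519.1 CPM in the hippocampus, 206.9 to 326.9 CPM in the hypothalamus and 166.6 to 270.6 CPM in the prefrontal cortex. Libraries with the same animal number deviated together over all genes, with a median r of 0.42 to 0.44 against -0.02 to -0.01 for libraries of different animals. In bulk tissue, fewer cells of a type and less RNA per cell cannot be told apart. The kit and counting were not stated to use strand, so reads of Tmc6 and Tmc8 in their shared bases, and those of Itgb4, St6galnac2 and Tmc8 where an antisense RNA overlaps them, cannot be told apart from the partner's.

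Levels between members were compared per length, as CPM per kilobase of exon (RPKM) averaged over a region. Cdr2l and Arl16 stood highest, with Cdr2l at 9.12 ± 1.30 RPKM in the prefrontal cortex (SD, n = 29) and Arl16 at 8.46 ± 1.83 RPKM. Usp36, Endov, Oxld1 and Fdxr came next in that region, at 7.95 ± 0.95, 7.66 ± 1.22, 6.27 ± 1.68 and 5.76 ± 0.66 RPKM. From Cdr2l to Fdxr, each gene and the next differed by less than the larger of their 2 SDs. Itgb4, Tmc6 and St6galnac2 were lower, at 1.97 ± 0.48, 1.95 ± 0.51 and 1.15 ± 0.26 RPKM, and the first 2 of these lay within their SDs. Tmc8 was the lowest at 0.33 ± 0.12 RPKM, resting on 10 to 107 counts in a library, so its values carry the largest counting error of the set. Oxld1 and St6galnac2 rested on 78 to 547 counts, and Usp36 on at least 1521.

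**Figure D1:**
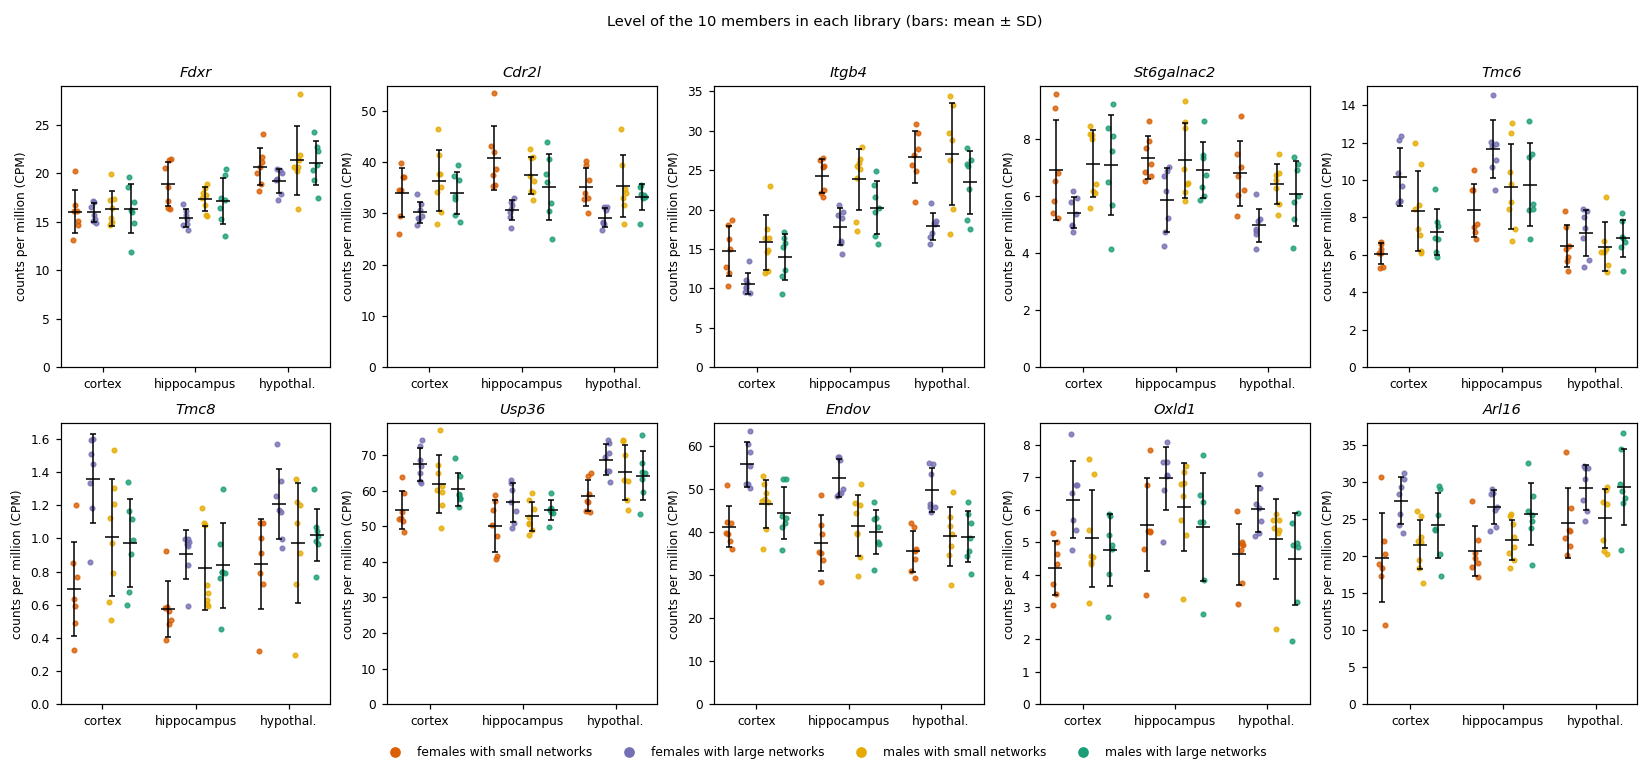
Normalised counts (CPM, linear axes from 0) of the 10 members in each library, by brain region and by the 4 groups of sex and network size. Points are libraries and bars the mean ± SD; in females of small networks the first 4 genes sit mostly above, and the last 6 mostly below, females of large networks.

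Levels of most members differed between brain regions. Itgb4, the integrin subunit, was 1.57-fold higher in the hippocampus and 1.72-fold higher in the hypothalamus than in the prefrontal cortex, with means of 13.8 ± 3.4, 21.6 ± 3.9 and 23.8 ± 5.5 CPM in prefrontal cortex, hippocampus and hypothalamus (SD, n = 29, 29 and 28). The log2 fold changes were 0.65 ± 0.07 and 0.78 ± 0.07 (SE), with adjusted p of 1.13e-14 and 9.69e-19 by edgeR's quasi-likelihood test with Benjamini-Hochberg adjustment over all genes. Tmc6 had its peak in the hippocampus, at 9.85 ± 2.16 CPM against 7.96 ± 2.07 CPM (prefrontal cortex) and 6.74 ± 1.14 CPM (hypothalamus), and fell by 0.54 ± 0.07 from hippocampus to hypothalamus on the log2 scale (adjusted p = 9.47e-11, edgeR). Its neighbour Tmc8 was lowest where Tmc6 was highest, with a log2 fold change of -0.34 ± 0.11 for hippocampus against prefrontal cortex (adjusted p = 0.00693, edgeR).

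Fdxr, of mitochondrial electron transfer, was highest in the hypothalamus, by 0.35 ± 0.04 on the log2 scale against the prefrontal cortex and 0.26 ± 0.04 against the hippocampus (adjusted p = 1.65e-11 and 9.43e-08, edgeR). Usp36 was lowest in the hippocampus, at 53.5 ± 5.4 CPM against 61.1 ± 7.3 and 64.2 ± 6.8 in prefrontal cortex and hypothalamus. Endov fell by 0.21 ± 0.05 from prefrontal cortex to hypothalamus on the log2 scale, and Arl16 rose by 0.22 ± 0.06. Oxld1 was highest in the hippocampus, by 0.25 ± 0.09 on the log2 scale against the prefrontal cortex (adjusted p = 0.0177, edgeR). In counts, 6 of 10 members differed between hippocampus and prefrontal cortex, 5 between hypothalamus and prefrontal cortex and 8 between hypothalamus and hippocampus. Of all 19873 genes tested, 63.3%, 75.3% and 68.8% did so, which makes these counts no result particular to the members. DESeq2's Wald test gave the same counts of members.

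Since the libraries of the regions come from the same animals, the fit was repeated with the animal as a block, and 6 more differences passed the test. With the animal as a block, Fdxr and Cdr2l were higher in hippocampus than in prefrontal cortex (adjusted p = 0.0121 and 0.0086, edgeR) and St6galnac2 was lower, and Usp36 higher, in hypothalamus than in prefrontal cortex (adjusted p = 0.00354 and 0.00491). Itgb4 was higher, and Endov lower, in hypothalamus than in hippocampus in that paired fit (adjusted p = 0.017 and 0.00458). The members that differed then numbered 8, 7 and 10 of 10, where 69.9%, 79.8% and 74.8% of all genes tested did in the same fit.

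In females, which provided the choice of members, the 4 proximal members were higher and the 6 distal members lower in animals with small networks, in each of the 3 regions. Of all genes tested, 49.9%, 51.8% and 48.9% had a log2 fold change above 0, and nothing is read from the members' share. The smallest of these 30 differences was that of Fdxr in the prefrontal cortex, with a log2 fold change of 0.0024, whose sign turned without the filter on low counts (-0.0079) and when animal 4, 9, 19, 25 or 26 was left out (-0.061 without animal 4). The largest was that of Tmc8 in the same region, at -0.96. Itgb4 in the hypothalamus ranged from 20.9 to 30.9 CPM (median 26.97) in 7 females with small networks and from 15.7 to 20.8 CPM (median 18.1) in 7 with large networks. The groups did not overlap, and the log2 fold change was 0.58 ± 0.08 (SE). In the hippocampus, Itgb4 ranged from 21.6 to 26.6 CPM (median 25.4) and from 14.4 to 20.6 CPM (median 18.97), again without overlap, whereas in the prefrontal cortex the groups overlapped.

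Cdr2l was the other proximal member whose groups did not overlap in a region. In the hippocampus it ranged from 35.3 to 53.4 CPM (median 38.7) in females with small and from 27.1 to 33.1 CPM (median 30.9) in females with large networks, a log2 fold change of 0.42 ± 0.08. St6galnac2, the sialyltransferase, had log2 fold changes of 0.34, 0.33 and 0.46 in prefrontal cortex, hippocampus and hypothalamus. In the hypothalamus it ranged from 5.29 to 8.81 CPM (median 6.70) against 4.14 to 6.06 CPM (median 4.85), with an overlap. Fdxr differed mainly in the hippocampus, with a median of 18.6 CPM (16.3 to 21.4) against 15.3 CPM (14.2 to 16.9).

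Among the 10 members, Tmc6 was the one whose female groups did not overlap in the prefrontal cortex. It ranged from 5.30 to 6.71 CPM (median 6.10) with small and from 8.76 to 12.4 CPM (median 9.66) with large networks, with no overlap and a log2 fold change of -0.75 ± 0.10. The log2 fold change was -0.47 in the hippocampus and -0.14 in the hypothalamus, where Tmc6 spanned 5.14 to 8.34 CPM and 5.32 to 8.45 CPM. Tmc8, which sits head to head with Tmc6, ranged in the prefrontal cortex from 0.327 to 1.20 CPM (median 0.633) with small and from 0.859 to 1.60 CPM (median 1.45) with large networks, with an overlap. Its log2 fold changes were -0.96 ± 0.23, -0.64 ± 0.19 and -0.50 ± 0.21 in prefrontal cortex, hippocampus and hypothalamus.

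Endov, the inosine-directed endonuclease, had the most even difference over regions, with log2 fold changes of -0.44, -0.48 and -0.48. In the hypothalamus it ranged from 29.4 to 42.1 CPM (median 35.6) with small and from 44.7 to 56.1 CPM (median 46.6) with large networks, without overlap. In the prefrontal cortex it ranged from 36.0 to 50.9 CPM against 50.2 to 63.5 CPM, and 1 female with a small network (animal 21) made the overlap. The other distal members overlapped between the groups in each region.

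Usp36, the nucleolar deubiquitinase, ranged in the prefrontal cortex from 48.4 to 64.0 CPM (median 52.2) with small and from 62.1 to 74.1 CPM (median 66.8) with large networks. Its log2 fold changes were -0.31, -0.18 and -0.22 in prefrontal cortex, hippocampus and hypothalamus, the narrowest of the distal members in the prefrontal cortex. Oxld1 ranged there from 3.06 to 5.29 CPM (median 4.32) and from 4.75 to 8.35 CPM (median 6.52), with log2 fold changes of -0.59, -0.32 and -0.37. Arl16 ranged in the hippocampus from 17.2 to 27.5 CPM (median 19.7) and from 23.4 to 29.1 CPM (median 26.7), with log2 fold changes of -0.47, -0.36 and -0.25. The highest Arl16 among females with small networks was that of animal 27 in all 3 regions.

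Over the 3 regions, the female groups did not overlap for 1, 2 and 2 of the 10 members in prefrontal cortex, hippocampus and hypothalamus. Among all genes tested the shares without overlap were 0.26%, 0.292% and 0.0662%, and nothing follows from the comparison, since these values chose the members. No threshold of rank was set for membership. The best rank by p among the 3 regions ran from 1 (Itgb4 in the hypothalamus, Tmc6 in the prefrontal cortex) to 71 (Arl16 in the hippocampus). The window was taken as the whole megabases around the members, and of its 224 other genes, those nearest in rank were Mcrip1 (rank 32 in the hippocampus, log2 fold change 0.21), Gm11730 (rank 51 in the prefrontal cortex, -0.99) and Gm11732 (rank 82 in the hippocampus, -1.18), so that members and neighbours interleave.

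Among the next were Kctd2 (rank 127, log2 fold change 0.16) and H3f3b (rank 159, -0.21) in the prefrontal cortex, Mif4gd (rank 190, 0.26) in the hippocampus, and Aanat (rank 304, -0.31) and Gm11732 (rank 358, -0.63) in the hypothalamus. H3f3b encodes a histone of the H3.3 kind and Aanat the penultimate enzyme of melatonin synthesis. In males none of these differences had an unadjusted p under 0.05 (0.364 to 0.959, edgeR).

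**Figure D2:**
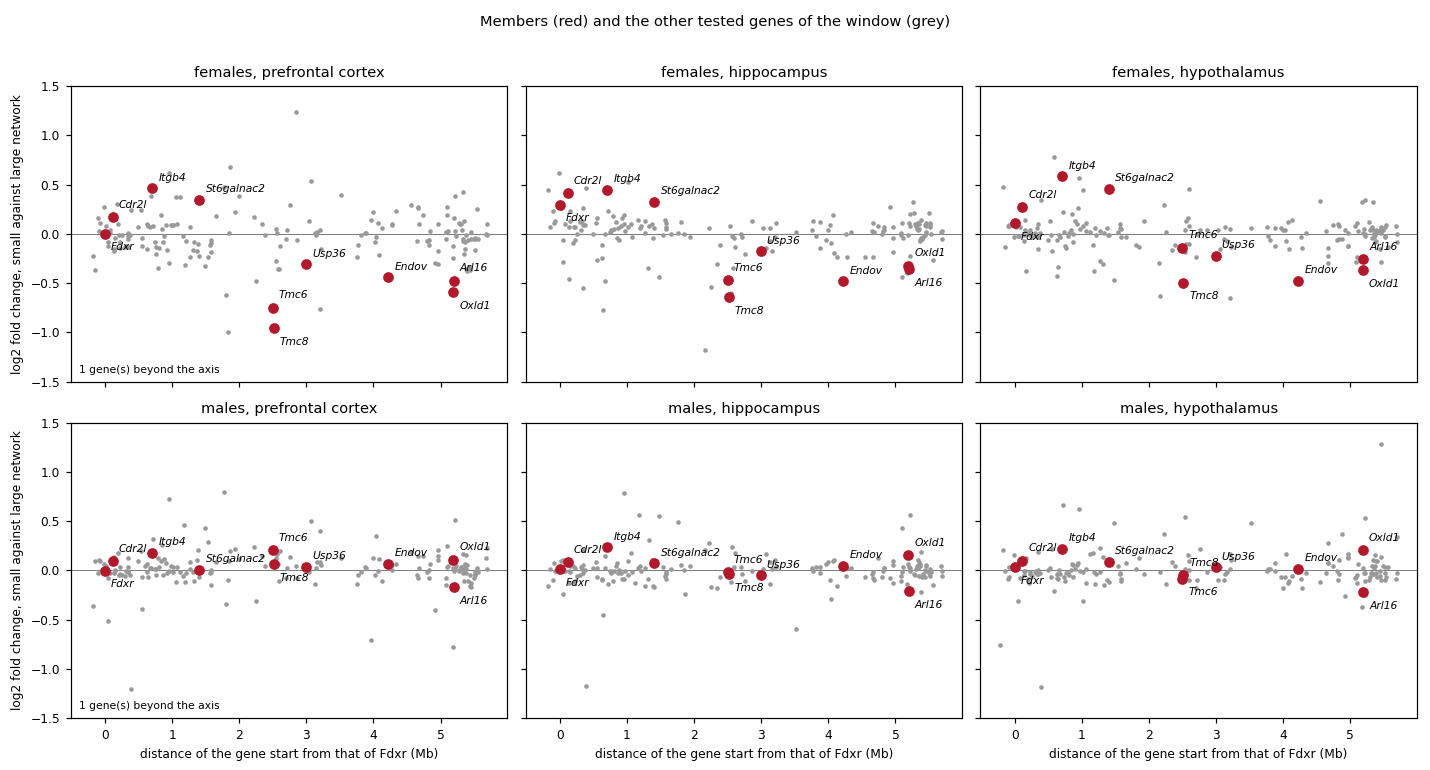
Log2 fold change of small against large networks (vertical axis) for each tested gene of the window against the distance of its lower coordinate from that of Fdxr in Mb (horizontal axis), for each sex and region; members are red and labelled, other genes grey. In females the 4 proximal members lie at or above 0 and the 6 distal ones below it, while in males all 10 lie between -0.22 and 0.23.

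The other genes of the window lay on both sides of 0. Of the other window genes tested in females, 82 were higher and 93 lower with small networks in the prefrontal cortex, 104 and 65 in the hippocampus and 94 and 82 in the hypothalamus, with median log2 fold changes of -0.02, 0.04 and 0.01. Over all genes tested the medians were -0.00048, 0.0055 and -0.0025. An unadjusted p under 0.05 was reached by 27 of 175, 25 of 169 and 14 of 176 other window genes in females, that is 15.4%, 14.8% and 7.95%, against 9.59%, 12.2% and 7.39% of all genes tested.

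In the males, which had no part in the choice, no member's difference with network size passed the test. The study reports that large networks were less extreme in the sampled males than in the sampled females. The contrast of network size was therefore not the same in both sexes, and the part of this in the male results was not tested. By edgeR's quasi-likelihood test with Benjamini-Hochberg adjustment, 0 of 10 members had an adjusted p under 0.05 for network size in prefrontal cortex, hippocampus or hypothalamus, where 0%, 0% and 0% of all genes tested did. DESeq2's Wald test also called 0 of 10 members. At an unadjusted p under 0.05, the counts were 0, 1 and 0 of 10 members, beside 2.52%, 3.88% and 2.9% of all genes. The 1 member was Arl16, whose log2 fold change in the hippocampus was -0.21 ± 0.10 (adjusted p = 0.999, edgeR). It ranged from 18.4 to 25.7 CPM (median 21.9) in 8 males with small and from 18.9 to 32.6 CPM (median 25.6) in 7 with large networks, with a wide overlap.

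Cdr2l, Itgb4, St6galnac2 and Arl16 had the sign seen in the females in the 3 regions, and the other 6 members did not in at least 1 region. The log2 fold changes of Cdr2l were 0.09, 0.09 and 0.10 in prefrontal cortex, hippocampus and hypothalamus, and those of St6galnac2 0.0035, 0.07 and 0.09. Itgb4 was higher in males with small networks by 0.18 ± 0.14, 0.23 ± 0.11 and 0.22 ± 0.15 on the log2 scale, and none passed the test (adjusted p = 0.999 to 1, edgeR). In the male hippocampus it ranged from 17.2 to 27.9 CPM (median 25.3) with small and from 15.6 to 24.9 CPM (median 20.2) with large networks. For Tmc6, the male prefrontal cortex had the opposite sign to the female one, 0.21 ± 0.15, with ranges of 6.09 to 11.96 CPM (median 7.93) and 5.91 to 9.51 CPM (median 6.91). Endov was within 0.06 of 0 in the males (0.06, 0.05 and 0.02), with SEs of 0.09 to 0.12. Whether the effect of network size differed between the sexes was not tested, because such a test would reuse the female values that chose the members.

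Between the sexes, with both network sizes weighted equally, 0 of 10 members had an adjusted p under 0.05 in any region, where 0.0976%, 0.102% and 0.117% of genes did (edgeR), and DESeq2's Wald test also called 0. The proximal members were lower in females in each region, with the widest log2 fold change of -0.25 ± 0.10 for Itgb4 in the prefrontal cortex (adjusted p = 0.92, edgeR). At an unadjusted p under 0.05 there were 2, 0 and 1 members, namely Itgb4 and St6galnac2 in the prefrontal cortex and Itgb4 in the hypothalamus, beside 4.98%, 5.99% and 6.79% of genes. Endov was 0.08, 0.12 and 0.11 higher in females on the log2 scale, with SEs of 0.06 to 0.07.

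The same animal tended to be high or low for a member in its 3 regions. Each library's log2 CPM was taken as its deviation from the mean of its group, so that neither sex nor network size enters, and the deviations were correlated between regions over animals. Arl16 had r = 0.93 between hippocampus and hypothalamus, Endov r = 0.91 and Oxld1 r = 0.89 (n = 28 animals). Their Spearman's rho was 0.91, 0.89 and 0.76, and the adjusted p by a two-sided permutation test over the 30 relations was 7.5e-05, 7.5e-05 and 0.00012 for r, where 1e-05 is the smallest unadjusted p that 100000 permutations can give. Without the 2 animals farthest from the median r was 0.89, 0.89 and 0.80, and in the males alone 0.92, 0.94 and 0.94.

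Of the 30 relations, 26 had an adjusted p under 0.05 for r and 25 for rho (permutation test). The exceptions for r were the 3 of Tmc8, with r = 0.40, 0.35 and 0.29 (adjusted p = 0.0562, 0.145 and 0.192, permutation test), and that of Fdxr between hippocampus and hypothalamus, with r = 0.17 (adjusted p = 0.397, permutation test). For rho, the relation of Itgb4 between prefrontal cortex and hypothalamus was also outside. Fdxr correlated at 0.64 and 0.68 in the pairs that include the prefrontal cortex. The males alone gave a median r of 0.69 over the 30 relations, against 0.64 for all animals. Joint variation was named when the set was put together, so these p-values are a description and no independent support for it.

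Many genes share such a pattern. Over 17824 genes tested in all regions, the median r was 0.33, 0.33 and 0.34 for the 3 pairs of regions, and 25.8%, 25.6% and 27.3% of genes had r over 0.5, as 24 of the 30 relations of the members did. Nothing is read from the members' share, since joint variation was named in their choice. Averaged over the 3 pairs, r was 0.60 in the median member, 0.31 in the median gene and 0.32 in the median of 183 window genes. Endov (0.84), Arl16 (0.82) and Oxld1 (0.77) stood above 97.8%, 97.4% and 96.1% of all genes, and Tmc8 (0.35) above 55.9%.

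**Figure D3:**
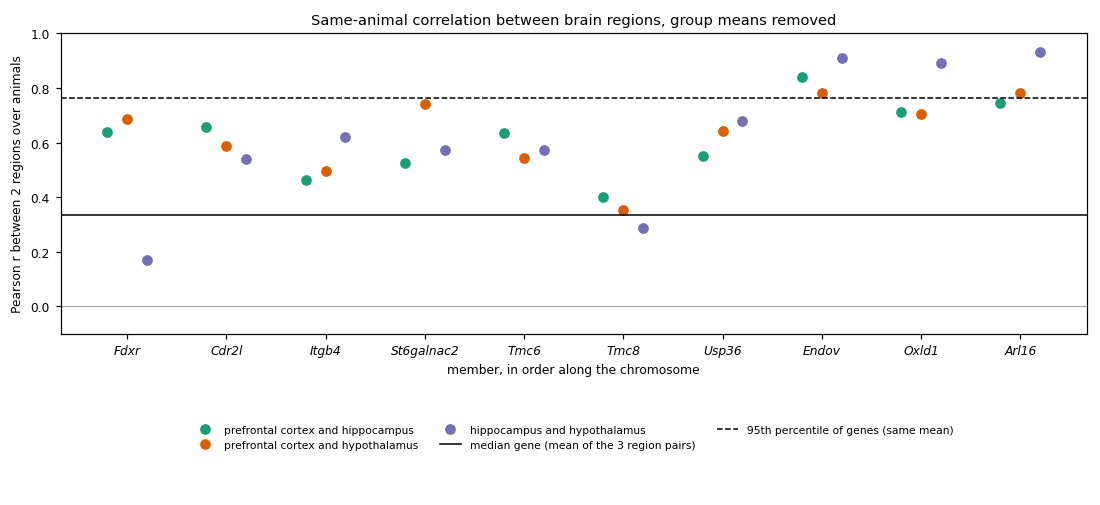
Pearson r between 2 brain regions (vertical axis, no unit) over 28 or 29 animals for each member (horizontal axis), after the mean of each group of sex and network size was removed; 1 point for each pair of regions. Lines give the median gene and the 95th percentile of 17824 genes; Endov, Oxld1 and Arl16 are highest between hippocampus and hypothalamus, and Tmc8 is near the median gene.

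The members also varied with each other. The 4 proximal and 6 distal members are also the 4 that were higher and the 6 that were lower in females with small networks, so position and the direction that came with the choice cannot be told apart. Deviations were averaged over an animal's regions and correlated over 29 animals for the 45 pairs. Within the proximal members 6 of 6 pairs were positive (median r = 0.42), within the distal members 14 of 15 were positive (median r = 0.57), and 24 of 24 pairs between the blocks were negative (median r = -0.38). With an adjusted p under 0.05 by a two-sided permutation test over the 45 pairs, 2 proximal, 9 distal and 5 mixed pairs passed for r, and 1, 8 and 8 for rho. Group means had been removed, but the members were chosen in animals that are among the 29, and the part of that choice in these signs was not tested. Since joint variation was also named in the choice, the p-values of pairs here and below are a description and no independent support.

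The strongest pair was Endov and Oxld1, 0.97 Mb apart, with r = 0.73 and rho = 0.61 (adjusted p = 0.00225 and 0.00864, permutation test). Usp36 and Endov had r = 0.71 and rho = 0.65, and Tmc6 and Endov r = 0.69 and rho = 0.70 (adjusted p = 0.00225 for both r, permutation test). Without the 2 farthest animals these 3 pairs had r = 0.65, 0.64 and 0.70. Usp36 and Oxld1, by contrast, had r = 0.45 and did not pass (adjusted p = 0.0515, permutation test). The promoter letters of these 4 genes are printed above, and Usp36 alone among the stretches shown there holds CGGAAGT.

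Tmc6 and Tmc8, with starts 122 bases apart, had r = 0.57 (adjusted p = 0.0177, permutation test), beside 0.69 for Tmc6 with the more distant Endov. Oxld1 and Arl16, whose lower coordinates are 0.008 Mb apart, had r = -0.08 (adjusted p = 0.708, permutation test), the 1 negative pair within the distal block. Among the proximal members, Fdxr with Itgb4 (r = 0.59, adjusted p = 0.0119) and Fdxr with Cdr2l (r = 0.56, adjusted p = 0.0226) passed the permutation test, but had r = 0.40 and 0.38 without the 2 farthest animals. The most negative pairs were Cdr2l with Tmc8 (r = -0.64) and St6galnac2 with Usp36 (r = -0.62), both with adjusted p = 0.00765 (permutation test), and both kept r below -0.5 without the 2 farthest animals (-0.55 and -0.52).

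In the 15 males alone, 6 of 6, 15 of 15 and 1 of 24 pairs were positive, the exception being Cdr2l with Arl16 at 0.01. Within single regions, 20 to 22 of the 24 mixed pairs were negative, and 13 to 15 of the 15 distal pairs positive. In the window as a whole, the median r was 0.05 to 0.10 at every distance, and pairs of genes under 0.1 Mb apart had an r beyond 0.5 in either direction in 11.7% of 703 pairs. This share was 6.32% to 8.32% at greater distances, and 6.40% between window genes and genes of other chromosomes. The members had 15 of 45 pairs beyond 0.5, and nothing is read from that share, since joint variation was named in their choice.

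**Figure D4:**
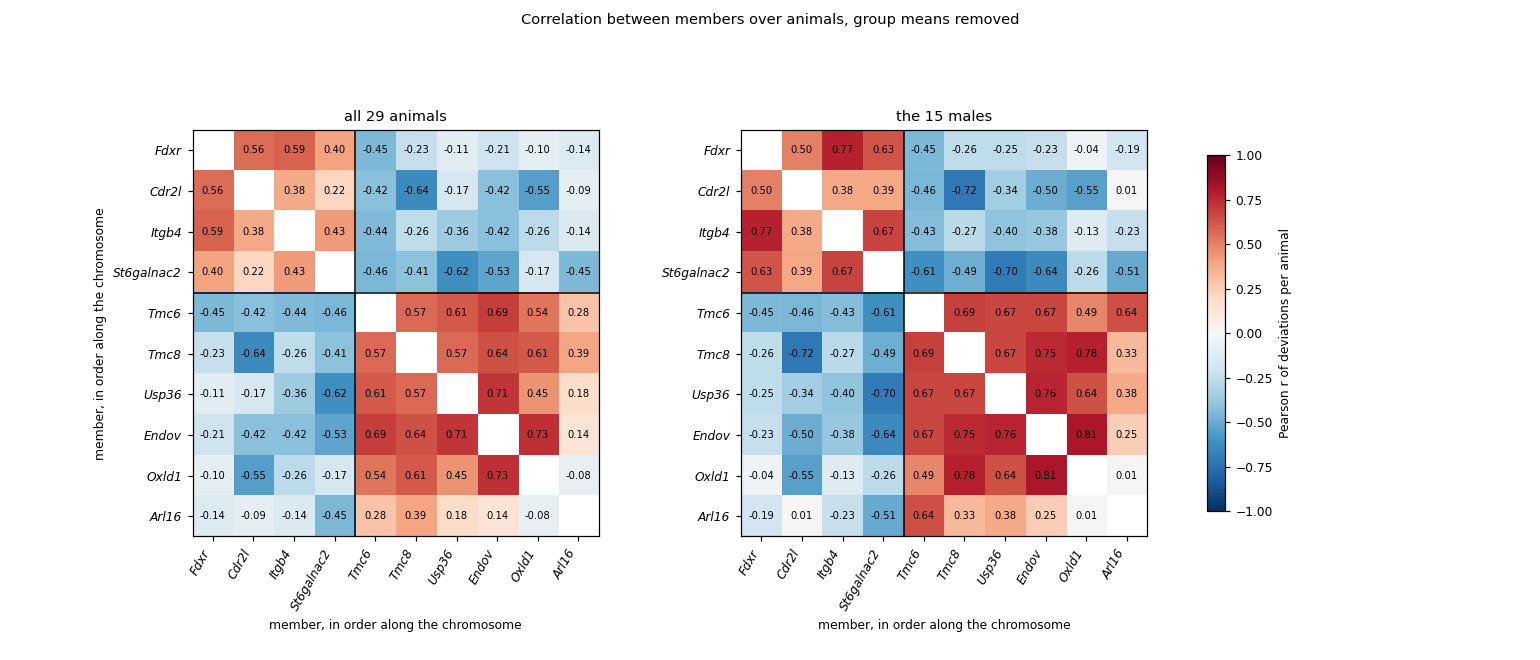
Pearson r (colour and number, from -1 to 1) between members over animals, after group means were removed and regions averaged, in all 29 animals (left) and in the 15 males (right); both axes list the members along the chromosome. Lines separate the 4 proximal from the 6 distal members: the 24 mixed pairs are negative on the left, and 23 of them on the right.

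Individual animals stood out in several members at once. Animal 11, a male with a large network, had the lowest Fdxr, Cdr2l and St6galnac2 of its group in the 3 regions, and the highest Tmc8 and Usp36. Its mean deviations were -0.34 for Fdxr, -0.32 for Cdr2l, -0.41 for Itgb4 and -0.48 for St6galnac2, and 0.21, 0.50, 0.19, 0.16 and 0.18 for Tmc6, Tmc8, Usp36, Endov and Oxld1 (log2 CPM). Animal 10, a male with a small network, had the lowest Tmc8, Usp36, Endov and Oxld1 of its group in the 3 regions, with deviations of -0.90, -0.23, -0.43 and -0.86. Its Oxld1 was 3.12, 3.25 and 2.33 CPM in prefrontal cortex, hippocampus and hypothalamus, against group medians of 4.56, 6.61 and 5.43 CPM. Animal 30, a male with a large network, was also low in Oxld1 (2.69, 2.79 and 1.96 CPM), and its Endov was the lowest of its group in the 3 regions.

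Pairs beyond 0.5 numbered 11 without animal 10, 14 without animal 11 and 8 of 45 without both, against 15 with all animals. The signs changed less. Without both animals 22 of 24 mixed pairs were negative, 14 of 15 distal pairs positive and 5 of 6 proximal pairs positive. These settings were chosen after the animals had been seen. Between prefrontal cortex and hypothalamus, the libraries of animals 8 and 10 did not all correlate best with their own number. The members' r with the log2 total count per animal lay between -0.26 and 0.31.

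**Figure D5:**
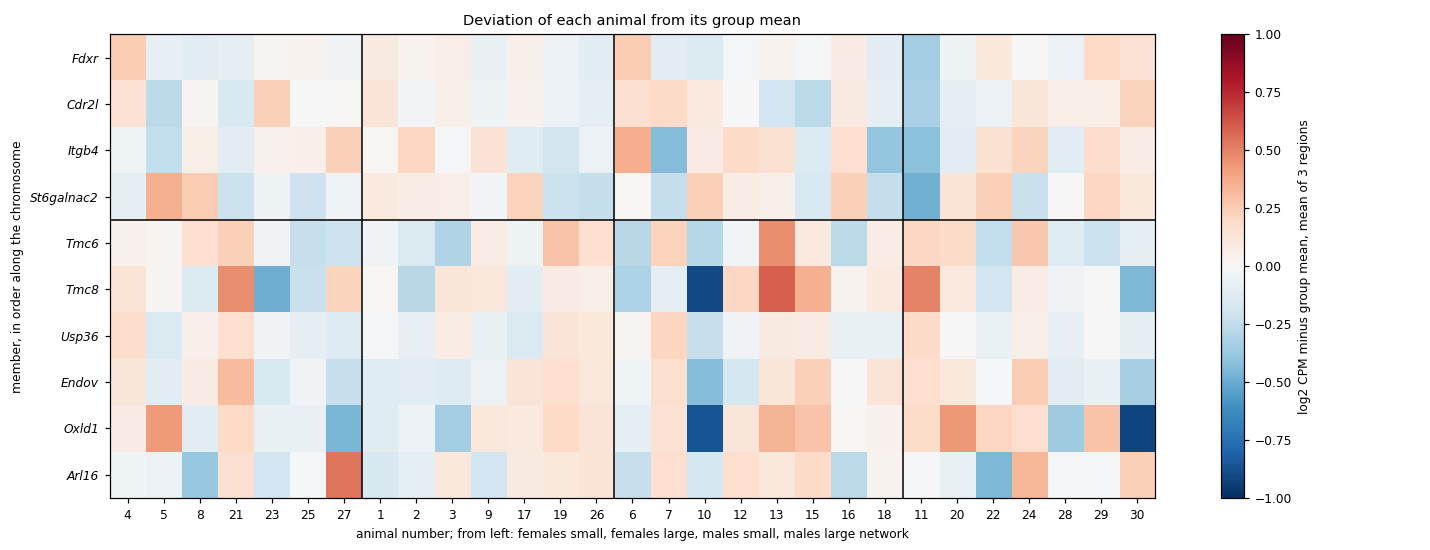
Deviation of each animal (columns, grouped by sex and network size) from its group mean in log2 CPM (colour), averaged over its regions, for the members in chromosome order (rows). Animal 11 is below its group in the 4 upper rows and above it in Tmc6, Tmc8, Usp36, Endov and Oxld1, and animal 10 is far below its group in Tmc8 and Oxld1.

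Genes that share a start with a member or overlap it were set beside it. Ccdc137, whose start lies 47 bases from that of Oxld1, varied with it (r = 0.60, 29 animals), while Hgs, 28 bases from Arl16, had r = -0.33 with it. The antisense B230344G16Rik, which shares 537 exon bases or 7.66% of those of Itgb4, had a median of 0.32 CPM and r = 0.25 with it. 1810032O08Rik, which shares 497 exon bases with St6galnac2, had a median of 2.75 CPM and r = -0.12. The antisense Gm11723 and Gm11724 at Tmc8 had medians of 0 and 0.02 CPM and were not tested.

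The gene most like each member over the 29 animals, among 17823 others, was on chromosome 11 for 6 of the 10. How often this gene lies on the same chromosome over all genes was not computed, so nothing is read from that count. For Fdxr it was Cdk3-ps, 0.95 Mb away (r = 0.87), and for St6galnac2 Nat9, 1.49 Mb away (r = 0.72). For Tmc6 and Oxld1 it was Endov (r = 0.69 and 0.73), and for Endov Oxld1. For Usp36 it was Tcam1, on the same chromosome but outside the window (r = 0.72). For Cdr2l it was Mmp24 on chromosome 2 (r = 0.83), for Itgb4 Gltp on chromosome 5 (r = 0.75), for Tmc8 Palb2 on chromosome 7 (r = 0.77) and for Arl16 Cetn3 on chromosome 13 (r = 0.83). Of the 10 genes most like Endov, 5 lay in the window (Oxld1, Usp36, Tmc6, Tmc8 and Tha1), and all of these but Tha1 are members. Itgb4, Tmc8 and Arl16 had none there. Of the 17824 genes tested in all regions, 183 lay in the window and 16350 were not placed on chromosome 11. For Tmc6, Oxld1 and Endov the most alike gene was itself a member, so the counts partly restate the set. The r values are the highest of many and are given as a description.

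The list of partners and paralogs held 28 genes, of which 27 were found in the table. For network size, 0 of the 23 or 24 tested had an adjusted p under 0.05 in either sex and any region (edgeR). At an unadjusted p under 0.05 there were 0, 2 and 0 in females and 2, 1 and 0 in males, in prefrontal cortex, hippocampus and hypothalamus. The shares of all genes at that level were 9.59%, 12.2% and 7.39% in females and 2.52%, 3.88% and 2.9% in males. Against the prefrontal cortex, 17 of 26 tested differed in the hippocampus and 19 of 26 in the hypothalamus (adjusted p under 0.05, edgeR). Of all genes, 63.3% and 75.3% did, so these counts are no result particular to the list. From prefrontal cortex to hippocampus 7 rose and 10 fell. Those with the smallest p were St6galnac5, a sialyltransferase of gangliosides (log2 fold change 0.92 ± 0.04), Tmc1 of the hair cell transduction channel (-2.28 ± 0.22) and the hemidesmosome linker Plec (-0.59 ± 0.06). In the hypothalamus 12 were higher and 7 lower than in the prefrontal cortex, and those with the smallest p were Adar, which makes the inosine that Endov recognises (0.35 ± 0.02), Tmc4 (1.18 ± 0.08) and Plec (-0.81 ± 0.06). Itga6, the partner of Itgb4, was 0.16 ± 0.05 higher in hypothalamus than in hippocampus (adjusted p = 0.00527, edgeR), a gene named here for that pairing after its value was seen.

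Of 63 marker genes in 13 lists of brain and blood cell types, 0 had an adjusted p under 0.05 for network size in either sex and any region (edgeR). At an unadjusted p under 0.05 there were 8 of 57, 6 of 62 and 15 of 63 tested in females, in prefrontal cortex, hippocampus and hypothalamus. In males there were 6 of 57, 9 of 62 and 5 of 62. Of all genes tested, 9.59%, 12.2% and 7.39% reached that level in females and 2.52%, 3.88% and 2.9% in males. In the female hypothalamus, where the groups of Itgb4 and Endov did not overlap, 3 of 5 oligodendrocyte markers were higher at that level, with a median log2 fold change of 0.29, as were 2 of 5 astrocyte markers (median 0.14), 2 of 5 microglia markers (median 0.13) and 2 of 5 choroid plexus markers (median -0.09). The summed oligodendrocyte level was 3595 to 6459 CPM with small and 3142 to 5120 CPM with large networks. In the female hippocampus, where the groups of Cdr2l and Itgb4 did not overlap, 3 of 5 astrocyte markers were higher (median 0.16), and their summed level was 1119 to 1515 CPM against 1057 to 1202 CPM. In the female prefrontal cortex, where the groups of Tmc6 did not overlap, 2 of 5 microglia markers were higher (median 0.17). In every other list at most 1 marker was higher and at most 1 lower in a region in females, and no list had a marker at 0. Over animals, the members' r with the 13 lists lay between -0.42 (Arl16 with hippocampal neurons) and 0.41 (Itgb4 with oligodendrocytes). Itgb4 had r = 0.40 with the hippocampal neuron list, and Arl16 0.34 with the oligodendrocyte list. Fdxr and Oxld1 had r = -0.41 and -0.40 with mural cells, and Arl16 -0.40 with endothelial cells. The 6 lymphocyte markers, which summed to 1.93 to 10.2 CPM in any library, had r = 0.34 with Tmc8 and -0.40 with Cdr2l. These r are among the widest of many, and the part of these cell types in the results was not tested.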

How the data were processed

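The authors mapped paired-end reads to GRCm38/mm10 with STAR, counted reads per gene with HTSeq and deposited raw counts for 35275 genes in 86 libraries. The annotation release and strand setting are not given in the sources used here. Genes were matched to GENCODE vM21 (34490 found). Groups came from the labels. Each sex and region was tested for network size with edgeR 4.0.16 in R 4.3.3 (TMM, filterByExpr with minimum count 10, total 15 and proportion 0.7, quasi-likelihood test, Benjamini-Hochberg over all genes, threshold 0.05). Sexes were compared with the 4 groups of a region, and regions with all libraries, in one fit. CPM used TMM factors over all libraries, and log2 CPM a prior count of 2. Correlations used 100000 permutations within groups (Python 3.11.15, numpy 2.4.6). The pipeline was tested on simulated counts.

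Library totals of 33711824 to 81865801 counts set the precision. Same-numbered libraries are from 1 animal, and their deviations correlated in each pair (r of at least 0.292). Between prefrontal cortex and hypothalamus, 27 of 28 libraries of each region correlated best with their own number, with exceptions at animals 8 and 10. In the other pairs of regions every library did. The RNA of 1 female hypothalamus with a large network, named Mus19 by the study, was of lower integrity by its methods. By number, sex and network size this is animal 19. Its hypothalamus had the highest Tmc6, Usp36, Endov and Oxld1 of its group, and its hippocampus the highest Tmc6, Usp36 and Oxld1. The part of RNA integrity in the results was not tested. The members and all lists were chosen with earlier results of these data known. The named genes are the members, the 3 other window genes with the smallest p per region in females (1 of them is not reported here), the gene most like each member, and at most 3 called partners a comparison. Alternatives were DESeq2 size factors, DESeq2 1.42.0 Wald tests, no filter on low counts, all 4 groups in one fit, the animal as a block, and each animal left out.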

Additional observations from a re-analysis of the deposited data

Results flagged for a closer look

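In each of the 120 combinations of member, region and group, the highest and lowest animals were set against the rest by Dixon's criterion, which chance alone passes in about 1 of 20 groups. In 8 combinations 1 animal stood far from the others. Oxld1 in the hypothalamus of males with small networks was 2.33 CPM in animal 10, against 5.29 CPM in the next lowest. Cdr2l in the hypothalamus of males with large networks was 27.9 CPM in animal 11, against 33.0 CPM in the next, and Tmc6 in the hypothalamus of males with small networks was 9.11 CPM in animal 13, against 6.73 CPM.

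Cdr2l reached 53.4 CPM in the hippocampus of animal 23 and Tmc8 0.925 CPM in that of animal 21, both with small networks, where the next highest had 43.1 and 0.584 CPM. Endov reached 50.9 CPM in the prefrontal cortex of animal 21, next to 42.4 CPM. In females with large networks, Itgb4 reached 13.4 CPM in the prefrontal cortex of animal 2, next to 11.03 CPM, and Tmc8 in the hippocampus of animal 17 was the lowest at 0.595 CPM, next to 0.839 CPM.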

How the results depend on the processing

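The tests of member differences are those in males, between the sexes and between regions. None of their results was lost or reversed by DESeq2 size factors, DESeq2's Wald test, no low-count filter or all 4 groups in one fit. St6galnac2 fell from prefrontal cortex to hypothalamus also with DESeq2 size factors (adjusted p = 0.0484, edgeR). The animal as a replicate block raised the members that differed between regions from 6, 5 and 8 to 8, 7 and 10 (and the share of all genes from 63.3%, 75.3% and 68.8% to 69.9%, 79.8% and 74.8%), by the calls named with the region results (adjusted p = 0.00354 to 0.017, edgeR), and changed no other call of a member. Within a region each animal gave 1 library, so no paired analysis of network size or sex was possible.

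Counts of genes moved more. For network size in females, edgeR gave 2, 0 and 1 genes in prefrontal cortex, hippocampus and hypothalamus, against 74, 97 and 42 by DESeq2's Wald test, 6, 1 and 3 without the filter, and 4 and 0 in prefrontal cortex and hypothalamus with all 4 groups in one fit. The 1 gene of the female hypothalamus was the member Itgb4, and 1 of the 2 in the prefrontal cortex was the member Tmc6. This comparison chose the members, so these calls are no support for them. In the fit of all 4 groups, where the female hypothalamus had 0 genes, Itgb4 was not called. In males the 0 genes became 2 in prefrontal cortex and 1 in hypothalamus by the Wald test, and 1 in prefrontal cortex with all 4 groups. For sex, the Wald test gave 29 against 18 genes in prefrontal cortex and 40 against 22 in hypothalamus. The cause was not tested. Leaving out 1 animal gave 0 to 5 genes in the female prefrontal cortex, 0 to 14 in the female hypothalamus (14 without animal 5) and 0 to 1 in the male prefrontal cortex (1 without animal 18). Pairs of members beyond 0.5 numbered 15, against 8 in hippocampus alone, 6 in hypothalamus alone and 8 without animals 10 and 11.

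Leaving out 1 female turned the sign of 1 member difference in females, that of Fdxr in the prefrontal cortex (-0.061 to 0.046). In males, the sign of 12 small differences turned when 1 animal was left out, none past the threshold. Their log2 fold changes ranged in prefrontal cortex from -0.068 to 0.048 (Fdxr), -0.093 to 0.078 (St6galnac2), -0.056 to 0.16 (Tmc8) and -0.015 to 0.076 (Usp36), in hippocampus from -0.040 to 0.060 (Fdxr), -0.092 to 0.070 (Tmc6), -0.14 to 0.10 (Tmc8) and -0.0039 to 0.10 (Endov), and in hypothalamus from -0.051 to 0.084 (Fdxr), -0.15 to 0.092 (Tmc8), -0.014 to 0.071 (Usp36) and -0.051 to 0.079 (Endov). Tmc8, at 10 to 107 counts a library, is the member whose depth limits it most.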
